A study of Mus musculus with 16 samples.

Results

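The transcriptomes of regulatory T cells, or Tregs, and of conventional CD4 T cells, or Tconv, were compared in Foxp3gfp knock-in mice. The samples were taken by their labels, as the 4 arrays described as Foxp3gfp Treg and the 4 described as Foxp3gfp Tconv, which make 8 of the 16 arrays of the series. These mice, called KI below, carry the allele Foxp3tm2Ayr on the NOD/LtJ background. The other 8 arrays, 4 of Tregs and 4 of Tconv, came from mice labelled WT, which carry the transgene Tg(Foxp3-EGFP/cre)1aJbs on the same background, and serve here as a reference for where the KI cells differ. All mice were 6 weeks old and received no other treatment, and all cells were CD4 T cells of the spleen. Both genotypes therefore carry a GFP reporter of Foxp3. In Foxp3tm2Ayr, GFP is joined to the start of the Foxp3 protein inside the gene itself, so that the fusion replaces the normal protein, while the WT transgene lies elsewhere in the genome, adds Cre, and leaves the Foxp3 gene as it is. Whether each array holds cells of a mouse of its own is not stated, and p-values therefore measure only how far these samples spread, which may be technical. A single sort gate is stated, namely CD3 and CD4 positive and GFP negative, for every sample, Tregs included, so how the Tregs were gated is unclear.

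Tregs are CD4 T cells that restrain immune responses and prevent autoimmunity. Their lineage is set by Foxp3, a transcription factor of the forkhead family, which binds DNA together with partners and chromatin enzymes and keeps some genes on and others off. Tregs live on IL-2 that other T cells make, take it up through a high-affinity receptor, and on activation turn into effector Tregs, which carry inhibitory receptors, tissue homing receptors and secreted mediators. The series title places an altered Foxp3 beside chromatin control and a shortfall of Treg function, and the comparison of both cell types within KI mice addresses which genes the KI Tregs still set apart from Tconv.

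Values are log2 expression per probe set after robust multi-array averaging (RMA), which subtracts background, gives all arrays 1 distribution and reduces the probes of a set to 1 value. A difference of 1 is therefore 2-fold. Nonspecific control probe sets reached at most 4.71, which places values under about 5 near background, and folds that involve them are understated. Each gene is represented by 1 probe set, and levels of different genes are not compared. Adjusted p-values are those of limma, fitted to all 16 arrays, with the Benjamini-Hochberg method over the 8139 genes tested. In bulk samples such as these, fewer cells of a type and less RNA per cell cannot be told apart.

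The cells carried the transcripts their labels call for. Foxp3 was 9.92, 10.05, 9.69 and 9.39 in KI Tregs 1 to 4 and 3.71, 3.57, 3.71 and 3.78 in KI Tconv 1 to 4 (log2 difference 6.07, SE 0.154, adjusted p = 3.02e-15). Every KI Treg array lay far above background and every KI Tconv array within it, and the fold of 67.2 is understated for that reason. Il2ra, the alpha chain that makes the IL-2 receptor high-affinity, was 9.90, 9.64, 9.87 and 9.67 in KI Tregs 1 to 4 and 3.75, 3.76, 3.39 and 3.91 in KI Tconv 1 to 4 (6.06, SE 0.132, adjusted p = 2.71e-16). Klrg1, an inhibitory receptor of highly differentiated lymphocytes, was 9.20, 9.04, 9.08 and 9.01 in KI Tregs 1 to 4 and 3.21, 3.15, 3.19 and 3.85 in KI Tconv 1 to 4 (5.73, SE 0.232, adjusted p = 9.66e-13). Dusp4, a phosphatase that switches off MAP kinases, was 9.80, 9.76, 9.94 and 9.25 in KI Tregs 1 to 4 and 5.12, 4.99, 5.11 and 4.52 in KI Tconv 1 to 4 (4.75, SE 0.171, adjusted p = 1.84e-13). None of the 4 genes overlapped between the groups, which was so for 34.7% of all genes. Their spread within a group was small beside the distance between groups. These 4 were given as markers of the comparison with earlier results of these data known, so they are no independent test of it. Of the T cell receptor complex, Cd3d (-0.03), Cd3e (-0.05) and Cd3g (-0.06) did not pass, at group means between 8.84 and 12.25, while Cd4 was lower in Tregs (-0.49, SE 0.099, adjusted p = 0.000658).

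**Figure D1:**
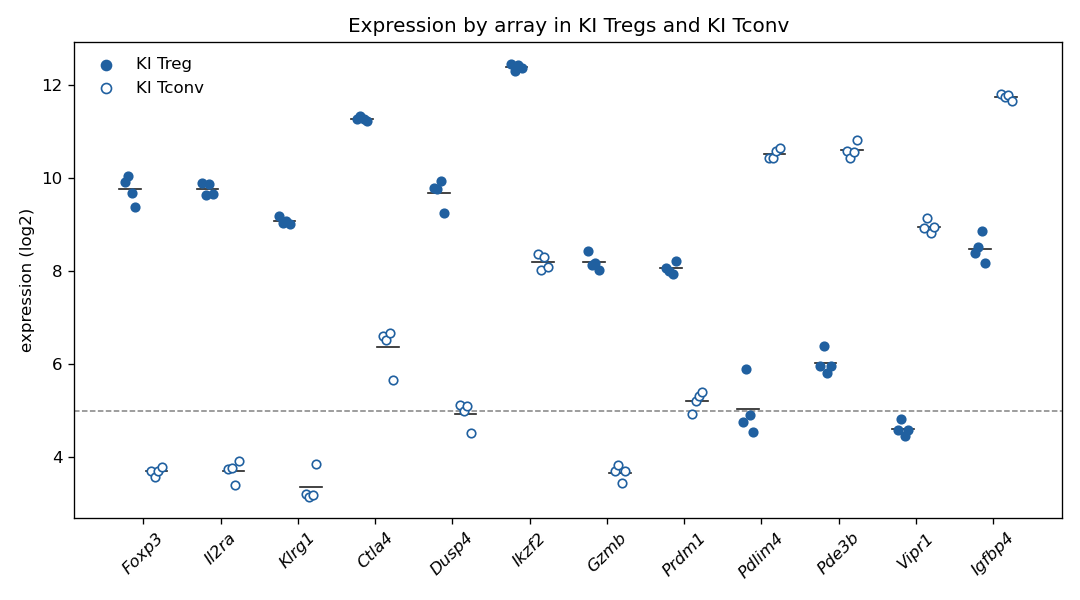
Log2 expression of 12 genes in each of the 4 KI Treg (filled circles) and 4 KI Tconv (open circles) arrays, with a bar at each group mean and a dashed line at 5, under which values lie near background. The groups do not overlap for any of the 12 genes: the first 8 lie higher in Tregs, up to 6.07 for Foxp3, and the last 4 lower, down to -5.50 for Pdlim4.

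Transcripts of other cells were present in some arrays of both groups. The summed signal of 7 neutrophil markers, as log2, was 9.35, 11.22, 7.70 and 10.28 in KI Tregs 1 to 4 and 10.05, 6.65, 7.03 and 9.58 in KI Tconv 1 to 4, so KI Treg 3, KI Tconv 2 and KI Tconv 3 were low and the groups overlapped. S100a9, one of these markers, ran from 6.04 to 10.22 in KI Tregs and from 4.46 to 8.78 in KI Tconv. B cell sums ran from 8.45 to 10.41 and from 8.53 to 10.01, monocyte sums from 8.19 to 9.97 and from 6.86 to 8.65, dendritic cell sums from 9.88 to 10.53 and from 9.32 to 9.64, and erythroid sums from 8.83 to 12.07 and from 8.61 to 11.12, with KI Tregs first in each pair. Plasma cell sums ran from 10.99 to 11.41 and from 9.96 to 10.52 without overlap, and 2 of its 5 genes, Irf4 and Prdm1, are also effector Treg factors. Xbp1 was the highest of the 5, from 10.46 to 10.81 and from 9.75 to 10.11, and Tnfrsf17 lay between 2.69 and 3.12, near background. Cst3 was the highest dendritic cell marker, from 9.58 to 10.22 and from 9.04 to 9.45. The separation of these 2 sums thus rests largely on single genes. NK cell sums ran from 8.32 to 8.89 and from 8.17 to 8.72. They came mainly from Nkg7, Eomes and Prf1, while Ncr1, Klrb1c and Klra8 stayed between 2.52 and 3.35, near background. All 6 platelet markers and 6 of the 7 stromal markers lay under 5 on all 8 arrays, as did 5 of 9 B cell, 5 of 7 dendritic cell and 3 of 7 monocyte markers. The same held for 3 of 7 NK cell, 2 of 7 neutrophil, 1 of 5 plasma cell and 1 of 4 erythroid markers. Hspa1b, a stress-induced chaperone, ran the other way from the neutrophil markers, at 6.40, 5.17, 8.94 and 7.33 in KI Tregs 1 to 4 and 5.89, 10.65, 11.35 and 7.73 in KI Tconv 1 to 4, and did not pass (-1.95, adjusted p = 0.148). The 3' signal exceeded the 5' signal of the actin control by 0.45 to 0.63 on the 8 arrays, with both groups in the same range. The part of these other transcripts in the results below was not tested.

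**Figure D2:**
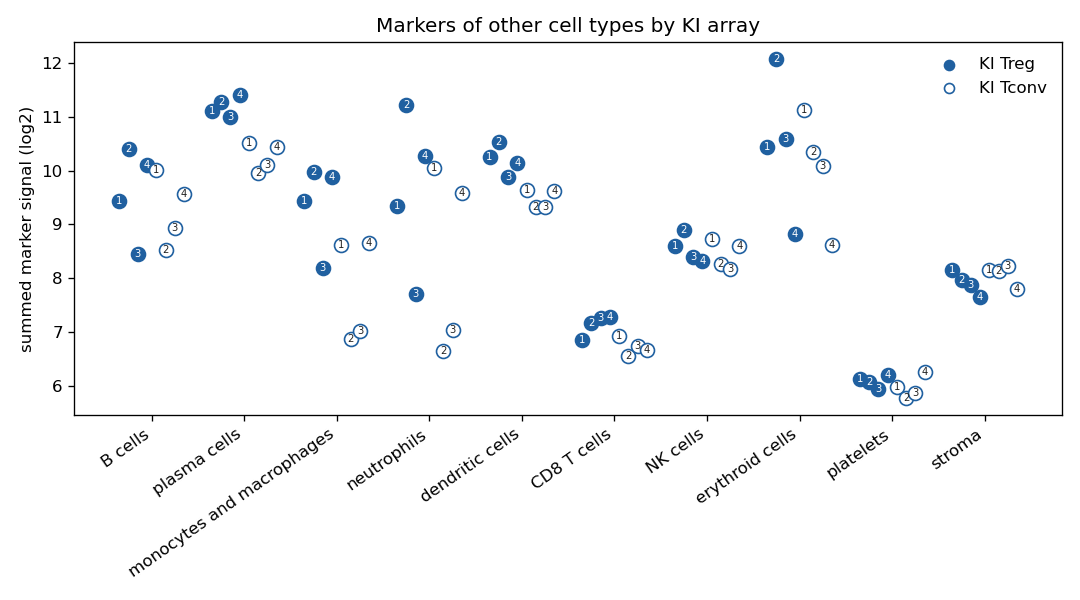
Summed signal (log2) of the marker genes of 10 other cell types in each KI Treg (filled circles) and KI Tconv (open circles) array, numbered by replicate. Neutrophil, monocyte and B cell sums are lowest in KI Treg 3, KI Tconv 2 and KI Tconv 3, and the groups overlap except for dendritic cells (KI Tregs from 9.88, KI Tconv up to 9.64) and plasma cells (from 10.99 and up to 10.52). Cst3 is the highest member of the dendritic cell sums and Xbp1 of the plasma cell sums.

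The promoters of 5 of the genes described here are shown because these genes stand at the 2 ends of the comparison, 4 among its largest rises and Pdlim4 as its largest fall. Each run of 300 bases spans a RefSeq transcription start and mostly lies before it, in GRCm38.p6, 5′ to 3′ on the gene's own strand. Capitals mark AAACA, the core letters of forkhead sites, and TGANTCA, the AP-1 site bound by factors such as Batf with Jun proteins, on either strand. The table holds 2 starts of Foxp3, of which the upstream is shown. The Foxp3 window is chrX:7579426-7579725 on the plus strand, that of Il2ra chr2:11642542-11642841 on the plus strand, that of Ctla4 chr1:60908775-60909074 on the plus strand, that of Gzmb chr14:56262285-56262584 on the minus strand and that of Pdlim4 chr11:54068968-54069267 on the minus strand.
Foxp3: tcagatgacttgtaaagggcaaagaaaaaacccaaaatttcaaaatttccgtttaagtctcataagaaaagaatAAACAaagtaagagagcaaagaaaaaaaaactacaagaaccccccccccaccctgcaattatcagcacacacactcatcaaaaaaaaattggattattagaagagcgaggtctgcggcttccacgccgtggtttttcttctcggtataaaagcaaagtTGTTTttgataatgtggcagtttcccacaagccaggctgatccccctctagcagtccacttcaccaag
Il2ra: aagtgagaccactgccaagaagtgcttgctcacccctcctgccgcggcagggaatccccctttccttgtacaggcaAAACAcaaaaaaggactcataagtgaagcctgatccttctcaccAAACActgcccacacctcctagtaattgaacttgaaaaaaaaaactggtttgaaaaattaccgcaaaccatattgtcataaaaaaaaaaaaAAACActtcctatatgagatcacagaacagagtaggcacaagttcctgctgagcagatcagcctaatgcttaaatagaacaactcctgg
Ctla4: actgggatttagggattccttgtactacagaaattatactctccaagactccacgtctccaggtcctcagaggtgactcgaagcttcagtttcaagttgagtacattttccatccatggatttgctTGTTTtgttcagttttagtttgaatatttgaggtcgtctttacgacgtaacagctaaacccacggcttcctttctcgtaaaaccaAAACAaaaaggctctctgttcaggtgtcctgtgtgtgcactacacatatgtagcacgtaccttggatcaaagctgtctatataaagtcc
Gzmb: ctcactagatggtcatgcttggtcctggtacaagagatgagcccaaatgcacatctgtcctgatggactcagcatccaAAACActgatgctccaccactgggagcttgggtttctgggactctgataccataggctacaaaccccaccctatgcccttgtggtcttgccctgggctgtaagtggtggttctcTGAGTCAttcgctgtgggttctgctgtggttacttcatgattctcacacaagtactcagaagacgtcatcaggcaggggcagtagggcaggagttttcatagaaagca
Pdlim4: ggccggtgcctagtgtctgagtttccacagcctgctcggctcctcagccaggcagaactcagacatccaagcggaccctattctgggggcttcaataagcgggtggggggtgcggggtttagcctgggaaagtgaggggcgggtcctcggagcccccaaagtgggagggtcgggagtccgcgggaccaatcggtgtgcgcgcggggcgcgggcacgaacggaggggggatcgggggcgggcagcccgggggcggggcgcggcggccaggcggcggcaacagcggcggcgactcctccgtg
AAACA occurred 2 times in the Foxp3 window, 3 times in that of Il2ra, 2 times in that of Ctla4, 1 time in that of Gzmb and 0 times in that of Pdlim4, while TGANTCA occurred 1 time, in that of Gzmb. Of the 15 largest rises 9 had a promoter in the table, and 6 of these held AAACA and 3 held TGANTCA. Of the 15 largest falls 8 had one, of which 3 held AAACA and 1 held TGANTCA. Among all 8543 promoters of tested genes 38.1% held AAACA and 4.73% held TGANTCA, and the shares were 50.5% and 7.81% over all 32851 promoters listed. The full forkhead site GTAAACA was in none of the windows of either set of 15, and in 2.72% of the promoters of tested genes.

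KI Tregs and KI Tconv differed in a large part of the transcriptome, with more large rises than large falls. Of the 8139 genes 41.1% passed at an adjusted p under 0.05, 1723 higher (21.2%) and 1620 lower (19.9%) in KI Tregs. The median size among those that passed was 0.59 for rises and -0.39 for falls, and 1794 of the 3343 differed by less than 0.5. At 1 or more, 495 genes rose and 168 fell. At 2 or more the counts were 173 and 44, and at 3 or more 58 and 19. Of the 8139 genes tested, 188 exceeded 5 in Treg arrays alone and 57 in Tconv arrays alone. In 34.7% of all genes the 4 KI Treg arrays did not overlap the 4 KI Tconv arrays (17.7% higher and 17% lower in Tregs), and 2661 of the genes that passed were among them. The balance of rises and falls moved with the scaling: with quantile normalisation repeated on the tested genes 1534 rose and 2163 fell, and the median over all genes went from -0.017 to -0.062. With the 6 KI arrays numbered 13 to 23 alone, 1736 rose and 1178 fell.

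**Figure D3:**
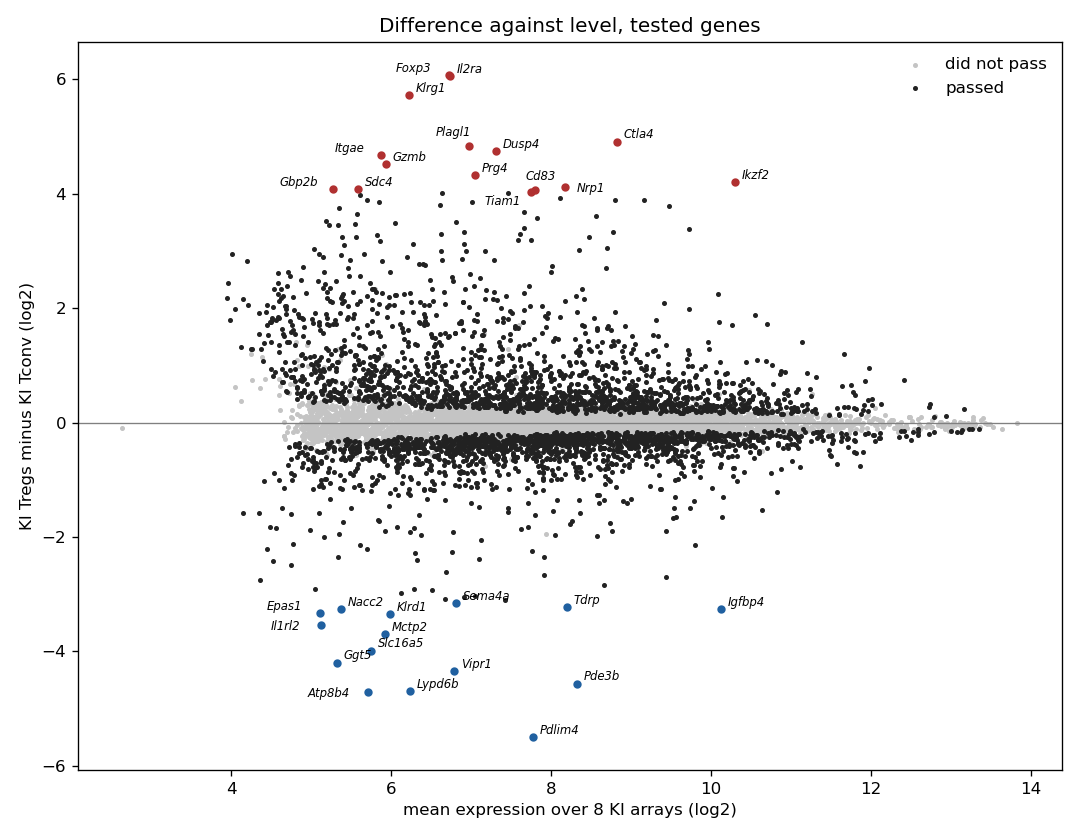
Difference between KI Tregs and KI Tconv (log2, vertical axis) against the mean level of a gene over the 8 KI arrays (log2, horizontal axis) for the 8139 tested genes. Grey points did not pass, black points passed at an adjusted p under 0.05, and the 15 largest rises (red) and 15 largest falls (blue) are named. Rises reach 6.07 and falls -5.50, and 495 genes rose by at least 1 against 168 that fell by as much.

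Of the surface proteins among the 15 largest rises, Ctla4, which takes the CD80 and CD86 ligands from antigen-presenting cells, was 11.27, 11.35, 11.27 and 11.23 in KI Tregs 1 to 4 and 6.60, 6.52, 6.68 and 5.67 in KI Tconv 1 to 4 (4.91, SE 0.158, adjusted p = 4.52e-14). KI Tconv 4 lay below the other Tconv arrays, and every Treg array far above them. Itgae, the CD103 chain that holds T cells to E-cadherin on epithelia, was 8.00, 8.07, 8.61 and 8.18 in KI Tregs 1 to 4 and 3.27, 3.38, 3.73 and 3.76 in KI Tconv 1 to 4 (4.68, SE 0.166, adjusted p = 1.59e-13). Nrp1, a coreceptor of semaphorins and VEGF, was 10.33, 10.15, 10.06 and 10.39 in KI Tregs 1 to 4 and 6.13, 5.92, 5.96 and 6.44 in KI Tconv 1 to 4 (4.12, SE 0.124, adjusted p = 2.17e-14). Cd83, a membrane protein of activated lymphocytes and dendritic cells, was 9.87, 9.83, 9.88 and 9.76 in KI Tregs 1 to 4 and 5.93, 5.63, 5.84 and 5.69 in KI Tconv 1 to 4 (4.06, SE 0.175, adjusted p = 2.03e-12). Sdc4, a heparan sulphate proteoglycan, rose by 4.08, from 3.54 ± 0.23 to 7.62 ± 0.07 (SD, n = 4). These 5 genes did not overlap between the groups, which the choice of the 15 required.

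Intracellular and secreted products formed the remainder of the 15 largest rises. Ikzf2, which encodes the Ikaros family factor Helios, was 12.46, 12.32, 12.44 and 12.37 in KI Tregs 1 to 4 and 8.37, 8.02, 8.30 and 8.10 in KI Tconv 1 to 4 (4.20, SE 0.072, adjusted p = 1.3e-17), with arrays of a group within 0.35 of each other. Plagl1, an imprinted zinc finger factor, was 9.44, 9.46, 9.59 and 9.11 in KI Tregs 1 to 4 and 4.55, 4.80, 4.83 and 4.05 in KI Tconv 1 to 4 (4.84, SE 0.175, adjusted p = 1.84e-13). Gzmb, a protease of cytotoxic granules, was 8.44, 8.13, 8.18 and 8.03 in KI Tregs 1 to 4 and 3.70, 3.82, 3.45 and 3.70 in KI Tconv 1 to 4 (4.52, SE 0.153, adjusted p = 7.88e-14). Tiam1, an activator of the GTPase Rac, was 9.95, 9.77, 9.65 and 9.71 in KI Tregs 1 to 4 and 5.89, 5.59, 5.51 and 5.92 in KI Tconv 1 to 4 (4.04, SE 0.111, adjusted p = 6.47e-15). Prg4, the lubricating proteoglycan of joints, rose by 4.33 and Gbp2b, an interferon-inducible GTPase, by 4.08. In 10 of the 15 genes the KI Tconv mean lay under 5.

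The lower end held genes whose signal in KI Tregs mostly lay near background. Pdlim4, an actin-associated PDZ and LIM domain protein, was 4.76, 5.89, 4.91 and 4.55 in KI Tregs 1 to 4 and 10.43, 10.43, 10.59 and 10.65 in KI Tconv 1 to 4 (-5.50, SE 0.201, adjusted p = 2.04e-13). KI Treg 2 stood above the other Treg arrays and still far under every Tconv array. Atp8b4, a lipid-flipping ATPase, was 3.13, 3.88, 2.64 and 3.73 in KI Tregs 1 to 4 and 7.91, 8.07, 8.01 and 8.26 in KI Tconv 1 to 4 (-4.71, SE 0.223, adjusted p = 6.77e-12). Lypd6b, a membrane-anchored protein of the Ly6 family, was 3.77, 4.38, 3.56 and 3.85 in KI Tregs 1 to 4 and 8.69, 8.38, 8.69 and 8.59 in KI Tconv 1 to 4 (-4.70, SE 0.138, adjusted p = 1.55e-14). Ggt5, a gamma-glutamyl transferase, was 3.37, 3.15, 3.23 and 3.12 in KI Tregs 1 to 4 and 7.25, 7.73, 7.55 and 7.13 in KI Tconv 1 to 4 (-4.20, SE 0.156, adjusted p = 2.59e-13). Slc16a5, of the monocarboxylate transporter family, fell by 3.99, Mctp2 by 3.70, Il1rl2, the receptor of IL-36 cytokines, by 3.54 and the BTB domain repressor Nacc2 by 3.26. Tdrp fell by 3.23, from 9.82 ± 0.07 to 6.59 ± 0.14 (SD, n = 4). In 10 of the 15 largest falls the KI Treg mean lay under 5.

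A pair of the largest falls were brakes and sensors of cyclic AMP, a second messenger that dampens T cells. Pde3b, a phosphodiesterase that breaks it down and a known target of repression by Foxp3, was 5.97, 6.40, 5.80 and 5.96 in KI Tregs 1 to 4 and 10.59, 10.43, 10.57 and 10.83 in KI Tconv 1 to 4 (-4.57, SE 0.126, adjusted p = 6.47e-15). Vipr1, a receptor that raises it in response to vasoactive intestinal peptide, was 4.58, 4.81, 4.45 and 4.59 in KI Tregs 1 to 4 and 8.93, 9.14, 8.83 and 8.95 in KI Tconv 1 to 4 (-4.35, SE 0.119, adjusted p = 6.47e-15). Ptger2, a prostaglandin E2 receptor that also raises it, moved the other way, at 8.49, 8.19, 8.64 and 8.94 in KI Tregs 1 to 4 and 4.83, 4.59, 5.03 and 5.76 in KI Tconv 1 to 4 (3.51, SE 0.196, adjusted p = 6.41e-11). The ectoenzyme genes Nt5e (CD73, 3.34) and Entpd1 (CD39, 2.64), which turn extracellular ATP into adenosine, rose. Of 16 tested genes of adenosine and cyclic AMP control 7 rose and 7 fell (against 21.2% and 19.9% of all genes), with a median of -0.13 against -0.017 for all genes, or -0.30 with the probe set of largest variance or the filter at 6. The other phosphodiesterases tested, Pde4b (-0.57), Pde4d (-1.16) and Pde7a (-0.98), fell, and so did the adenylyl cyclase genes Adcy6 (-1.01) and Adcy7 (-0.53), while the cyclase gene Adcy3 (0.29) rose, the last pair named after their values were seen.

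The list of genes known to stand higher in Tregs had 22 tested members of 25. These 22 rose, with a median of 3.69, where 21.2% of all genes rose. The list was written with results of these data known and is no independent evidence of its direction. A gene was tested where at least 4 of the 16 arrays exceeded 5, so genes silent in 1 cell type entered through the other: 6 of the 22, and 188 of all 8139 genes, exceeded 5 in Treg arrays alone. Beside the genes above it held Socs2 (4.02), Tnfrsf4 (3.89), Capg (3.81), Ikzf4 (3.57) and Il2rb (3.39), where Socs2 restrains cytokine signals, Tnfrsf4 is the costimulatory receptor OX40, Capg caps actin filaments, Ikzf4 encodes the Ikaros family factor Eos and Il2rb the beta chain of the IL-2 receptor. Tnfrsf9 (3.29), the opioid precursor gene Penk (3.24), Icos (2.25) and Tnfrsf18 (1.71) rose with them.

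Of 12 tested genes known to stand lower in Tregs 10 fell and 2 rose, with a median of -1.57, where 19.9% of all genes fell. Igfbp4, a secreted binder of insulin-like growth factors, was 8.39, 8.53, 8.86 and 8.17 in KI Tregs 1 to 4 and 11.81, 11.75, 11.79 and 11.67 in KI Tconv 1 to 4 (-3.27, SE 0.106, adjusted p = 4.88e-14). Tgfbr3, the TGF-beta coreceptor betaglycan, was 7.94, 8.13, 8.01 and 8.26 in KI Tregs 1 to 4 and 10.74, 10.74, 10.77 and 10.92 in KI Tconv 1 to 4 (-2.71, SE 0.085, adjusted p = 3.24e-14). Themis (-1.78), which tunes T cell receptor signals in development, the actin crosslinker gene Actn1 (-1.65), the naive T cell factor gene Lef1 (-1.50), the chromatin organiser gene Satb1 (-0.76) and Bach2 (-0.48) fell as well. Bcl2, a survival gene, fell by 0.32 (adjusted p = 0.0358) and lost its call when KI Treg 1, 2 or 3 or KI Tconv 1 or 4 was left out, with differences from -0.43 to -0.20 over the 8 arrays left out in turn. It also did not pass with the KI arrays fitted alone (-0.32), no variance trend (-0.32) or the arrays numbered 13 to 23 alone (-0.25). The same held without KI Treg 2 and KI Tconv 1 (-0.22). Id3, an inhibitor of E proteins, rose instead, by 1.00, and Ptpn22, a phosphatase of T cell receptor signalling, by 0.20, which did not pass without KI Tconv 4 (0.14). Nor did Ptpn22 pass on the arrays numbered 13 to 23 alone (0.15) or with each array centred on its median (0.17).

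Transcription factors of effector Tregs were higher in KI Tregs with few exceptions. Of 14 tested 12 rose and 2 fell (against 21.2% and 19.9% of all genes), with a median of 1.61. Of the 14, 1 exceeded 5 in Treg arrays alone and 1 in Tconv arrays alone. Prdm1, which encodes Blimp-1, a driver of terminal differentiation, was 8.07, 8.01, 7.94 and 8.22 in KI Tregs 1 to 4 and 4.93, 5.20, 5.32 and 5.41 in KI Tconv 1 to 4 (2.84, SE 0.128, adjusted p = 3.44e-12). Nfil3, a basic leucine zipper factor, was 7.32, 7.15, 6.90 and 7.11 in KI Tregs 1 to 4 and 4.03, 4.26, 4.12 and 4.33 in KI Tconv 1 to 4 (2.94, SE 0.129, adjusted p = 2.42e-12). Irf4, needed for effector Tregs, was 7.87, 8.17, 8.40 and 7.92 in KI Tregs 1 to 4 and 5.48, 5.81, 6.36 and 5.35 in KI Tconv 1 to 4 (2.34, SE 0.18, adjusted p = 6.11e-09). Maf (2.77), Rora (2.15), Bhlhe40 (1.74), Ikzf3 (1.65), Myb (1.57), Hif1a (1.08), Gata3 (0.99) and Bcl6 (0.50) rose too. Id2, an inhibitor of E proteins, fell by 1.65, and Epas1, which encodes HIF-2 alpha, fell from 6.78 ± 0.33 to 3.44 ± 0.20, near background (SD, n = 4, -3.34, SE 0.153, adjusted p = 4.49e-12).

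Surface and secreted products of effector Tregs that passed the filter on low values were higher in KI Tregs, 10 of the 19 listed. Of these 10, 3 exceeded 5 in Treg arrays alone and could enter only by being higher there, so the count is no measure of the list. Of the others 6, among them Il10, Lag3, Havcr2 and Ccr8, lay under the filter on low values, and 3 were not analysed here. Tnfrsf1b, the TNF receptor 2, was 9.25, 9.32, 9.10 and 9.07 in KI Tregs 1 to 4 and 5.86, 5.78, 6.21 and 6.10 in KI Tconv 1 to 4 (3.20, SE 0.099, adjusted p = 2.97e-14). Icos, a costimulatory receptor, was 11.22, 11.22, 11.26 and 11.16 in KI Tregs 1 to 4 and 8.84, 9.00, 8.98 and 9.02 in KI Tconv 1 to 4 (2.25, SE 0.082, adjusted p = 2.04e-13). Fgl2, a secreted fibrinogen-like mediator of suppression, was 7.64, 7.50, 7.67 and 7.75 in KI Tregs 1 to 4 and 4.14, 3.33, 3.17 and 4.34 in KI Tconv 1 to 4 (3.90, SE 0.315, adjusted p = 1.19e-08), with KI Tconv 1 and 4 above KI Tconv 2 and 3. The IL-27 and IL-35 subunit gene Ebi3 (2.57), the inhibitory receptor gene Pdcd1 (2.08), Cxcr3 (1.94) and the adhesion receptor gene Cd44 (0.99) also rose.

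Of 11 tested molecules linked to suppression 10 rose and 1 fell (against 21.2% and 19.9% of all genes). Of the 11, 4 exceeded 5 in Treg arrays alone and could enter only by being higher there, so the count is no measure of the list. Apart from those above, the galectin genes Lgals1 (1.88) and Lgals3 (1.66) and Tgfb1 (0.44) rose, the last of which did not pass with quantile normalisation repeated (0.29) or without KI Treg 2 and KI Tconv 1 (0.30). Prf1, the pore-forming protein that lets granzymes into target cells, fell by 1.92, from 7.20 ± 0.07 to 5.28 ± 0.08 (SD, n = 4, adjusted p = 5.78e-09), in contrast to Gzmb. Fasl, the death ligand, fell by 1.97.

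IL-2 receptor chains and the signals after them were raised in part. Il2rb was 11.36, 11.42, 11.42 and 11.50 in KI Tregs 1 to 4 and 8.29, 7.70, 7.78 and 8.36 in KI Tconv 1 to 4 (3.39, SE 0.124, adjusted p = 2.04e-13), and Il15ra rose by 0.78. Il4ra (0.32, adjusted p = 0.0588) and Il21r (0.17, adjusted p = 0.309) did not pass. Among 16 JAK, STAT and feedback genes 10 rose and 1 fell (against 21.2% and 19.9% of all genes), with a median of 0.38. The largest were the STAT5 target genes Socs2, 9.55, 9.41, 9.65 and 9.28 in KI Tregs 1 to 4 and 5.86, 4.81, 5.05 and 6.07 in KI Tconv 1 to 4 (4.02, SE 0.219, adjusted p = 4.62e-11), and Cish (1.94), and the kinase gene Pim1 (1.69). Stat5a (0.88) and Jak3 (0.71) rose, Jak1 (-0.07) and Jak2 (-0.11) did not pass, and the kinase gene Pim2 fell (-0.74).

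Costimulatory and coinhibitory receptors belong mostly to the TNF receptor and CD28 families. Of 10 TNF receptor family genes 8 rose and 2 fell (against 21.2% and 19.9% of all genes), with a median of 0.79. Tnfrsf4 was 10.79, 10.97, 10.72 and 10.50 in KI Tregs 1 to 4 and 6.85, 6.88, 6.89 and 6.81 in KI Tconv 1 to 4 (3.89, SE 0.11, adjusted p = 8.55e-15), and its Tconv arrays lay within 0.1 of each other. Tnfrsf18, which encodes GITR, rose by 1.71 from a Tconv mean of 9.41. Tnfrsf13b (0.95), Fas (0.63), Tnfrsf25 (0.45) and Cd27 (0.42) rose less, and Tnfrsf1a (-0.44) and Tnfrsf14 (-0.67) fell. Of 11 CD28 family and coinhibitory genes 6 rose and 1 fell (against 21.2% and 19.9% of all genes). Cd28 itself (-0.01, adjusted p = 0.845) and Btla (-0.16, adjusted p = 0.164) did not pass, while Cd200 (2.13) and Cd5 (0.59) rose.

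Homing and adhesion genes showed a mixed set of large changes. Of 6 chemokine receptor genes tested 5 rose and 1 fell (against 21.2% and 19.9% of all genes), with a median of 1.97. Ccr6, the receptor of CCL20, was 9.62, 9.40, 9.50 and 9.46 in KI Tregs 1 to 4 and 5.85, 5.48, 5.65 and 6.28 in KI Tconv 1 to 4 (3.68, SE 0.144, adjusted p = 5.3e-13). Ccr2, the receptor of CCL2, was 7.95, 6.98, 7.59 and 8.07 in KI Tregs 1 to 4 and 5.20, 4.67, 4.43 and 4.70 in KI Tconv 1 to 4 (2.90, SE 0.229, adjusted p = 8.75e-09). Monocytes carry Ccr2 as well, and it is itself a member of the monocyte sum given above. Another monocyte marker, Lyz2, ran from 5.50 to 9.36 in KI Tregs and from 5.11 to 8.26 in KI Tconv, with overlap, and the part of monocytes in the Ccr2 result was not tested. The follicular homing receptor gene Cxcr5 (2.00), Cxcr3 (1.94) and the gut homing receptor gene Ccr9 (1.05) rose. Cxcr6, the receptor of CXCL16, fell, at 5.13, 5.00, 4.86 and 5.18 in KI Tregs 1 to 4 and 8.46, 7.48, 7.58 and 8.36 in KI Tconv 1 to 4 (-2.93, SE 0.199, adjusted p = 1.13e-09), with KI Tconv 1 and 4 again above KI Tconv 2 and 3. Of 9 integrin genes 5 rose and 1 fell (against 21.2% and 19.9% of all genes): Itgb1 (1.80) and Itgav (1.06) rose with Itgae, Itgb3 fell (-2.40), and Itgb2 (0.01) and Itga4 (0.13) did not pass. Among neuropilins, semaphorins and plexins, Plxnd1 rose by 1.49, whereas Sema4f fell by 1.89 and Sema4a was 5.16, 5.48, 5.06 and 5.23 in KI Tregs 1 to 4 and 8.50, 8.49, 8.40 and 8.20 in KI Tconv 1 to 4 (-3.16, SE 0.134, adjusted p = 1.74e-12).

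NK-type receptors split. Only 3 of the 15 listed genes passed the filter on low values. Klrg1 rose as given above, Nkg7, a granule membrane protein, rose by 0.96, and Klrd1, the CD94 chain of NKG2 receptors, was 3.82, 5.23, 3.87 and 4.33 in KI Tregs 1 to 4 and 7.74, 7.44, 7.48 and 8.00 in KI Tconv 1 to 4 (-3.35, SE 0.364, adjusted p = 5.98e-07). Of 9 dual specificity phosphatase genes tested Dusp4 rose and 3 fell (against 21.2% and 19.9% of all genes). Of these Dusp6 (-1.17) and Dusp10 (-1.27) fell by most, and Dusp1 (0.50, adjusted p = 0.295) and Dusp2 (-0.03, adjusted p = 0.867) did not pass. Dusp1 passed with a term for the label number range (0.50) and on the arrays numbered 13 to 23 alone (0.32). Cd8a lay between 5.73 and 6.37 in KI Tregs and between 3.92 and 4.61 in KI Tconv (1.82, SE 0.182, adjusted p = 2.04e-07), whereas Cd8b1 did not pass (-0.26, adjusted p = 0.0934).

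Genes of calcium-binding S100 proteins and annexins, listed with galectins and Capg, are induced in activated lymphocytes and abundant in myeloid cells. They rose in 12 of 16 cases and fell in 1 (against 21.2% and 19.9% of all genes), with a median of 1.68. Of the 16, 1 exceeded 5 in Treg arrays alone. The neutrophil markers S100a8 and S100a9 are among the 16 and did not pass. S100a6 was 11.22, 11.29, 10.90 and 11.07 in KI Tregs 1 to 4 and 7.84, 6.52, 6.56 and 7.95 in KI Tconv 1 to 4 (3.90, SE 0.261, adjusted p = 8.61e-10). S100a4 was 11.63, 11.56, 10.94 and 11.35 in KI Tregs 1 to 4 and 7.66, 6.90, 7.33 and 8.47 in KI Tconv 1 to 4 (3.78, SE 0.227, adjusted p = 1.87e-10). In both genes KI Tconv 1 and KI Tconv 4, the Tconv arrays with the highest neutrophil sums (10.05 and 9.58), lay above the other Tconv arrays and still below every KI Treg array, and the part of other cells in the result was not tested. Without KI Treg 2 and KI Tconv 1, the array with the highest neutrophil sum in each group, the differences were 4.06 for S100a6 and 3.74 for S100a4. Anxa2 (2.70), Anxa4 (2.48) and S100a11 (2.16) rose too.

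Of 10 resting and lymphoid homing genes 7 fell and 0 rose, where 19.9% of all genes fell and 21.2% rose, with a median of -0.40. S1pr1, the receptor that lets T cells leave lymphoid organs, fell by 0.99 from 10.08 ± 0.55 to 9.09 ± 0.50 (SD, n = 4), and its regulator Klf2 by 0.48. On the arrays numbered 13 to 23 alone the S1pr1 difference was -1.48, and KI Treg 4 lay above KI Tconv 4, the other way. Klf3 (0.03) and Il6ra (-0.13) did not pass. Of 18 proximal T cell receptor signalling genes 9 fell and 4 rose (against 19.9% and 21.2% of all genes), with a median of -0.21, or -0.36 with the probe set of largest variance: Grap2 (-1.01), Pag1 (-0.87), Txk (-0.67), Tec (-0.61) and Lat (-0.44) were among those that fell, and Vav3 (0.79) led those that rose. The kinase genes Zap70 (-0.07) and Prkcq (-0.06) did not pass.

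Immediate early genes of T cell receptor signals passed about as often as all genes. Of 15 tested 5 rose and 2 fell, 7 in all where 41.1% of all genes passed, with a median of 0.22. The nuclear receptor genes Nr4a1, 9.55, 9.67, 9.61 and 9.05 in KI Tregs 1 to 4 and 8.37, 8.70, 8.63 and 7.63 in KI Tconv 1 to 4 (1.14, SE 0.181, adjusted p = 5.89e-05), Nr4a2 (1.77) and Nr4a3 (1.37) rose together, with Egr2 (0.89). Fos (0.22), Jun (-0.18), Junb (0.02), Myc (0.07) and the activation marker gene Cd69 (0.02) did not pass. NF-kappaB genes rose in 13 of 16 cases and fell in 2 (against 21.2% and 19.9% of all genes), with a median of 0.69. Bcl3 was 7.96, 8.10, 7.70 and 7.84 in KI Tregs 1 to 4 and 6.83, 6.10, 6.22 and 6.35 in KI Tconv 1 to 4 (1.53, SE 0.159, adjusted p = 3.46e-07). The subunit genes Nfkb2 (1.15), Relb (1.15) and Rel (0.92) and the inhibitor gene Nfkbia (1.01) rose, while the kinase genes Ikbkb (-0.39) and Ikbke (-0.40), named here after their values were seen, fell.

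Helper lineage factors and cytokines gave a mixed picture. The aryl hydrocarbon receptor gene Ahr was 8.55, 8.33, 8.82 and 8.60 in KI Tregs 1 to 4 and 5.12, 5.01, 5.14 and 5.67 in KI Tconv 1 to 4 (3.34, SE 0.173, adjusted p = 2.45e-11), and Eomes (0.83) rose, while Runx3 (-0.78) fell. Several helper cytokine genes, Il2, Il4, Il5, Il13 and Il17a among them, lay under the filter on low values. Tnfsf11 (1.67), which encodes RANKL, Lta (1.34) and the decoy receptor gene Il1r2 (2.36) rose, Tnfsf8 (-1.22) fell, and Il21, a cytokine of follicular helper cells, fell from 5.92 ± 0.23 to 4.04 ± 0.48 (SD, n = 4, adjusted p = 4.24e-07). Ifng, the gene of interferon gamma, was 6.53, 7.03, 6.02 and 5.76 in KI Tregs 1 to 4 and 6.57, 4.85, 5.40 and 4.94 in KI Tconv 1 to 4 (0.90, SE 0.32, adjusted p = 0.0324), and it lost its call when KI Treg 1 or 2 or KI Tconv 2, 3 or 4 was left out, with differences from 0.66 to 1.27. It also did not pass with the KI arrays fitted alone (0.90), quantile normalisation repeated (0.75), a robust variance trend (0.90) or the arrays numbered 13 to 23 alone (0.92).

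TGF-beta receptors moved apart. Tgfbr1 rose by 1.36 (8.76 ± 0.25 to 10.12 ± 0.23, SD, n = 4), Tgfbr2 fell, at 10.16, 10.21, 10.18 and 10.36 in KI Tregs 1 to 4 and 11.33, 11.38, 11.40 and 11.62 in KI Tconv 1 to 4 (-1.21, SE 0.066, adjusted p = 5.27e-11), and Tgfbr3 fell as given above. The repressor gene Tgif1 (2.10) and the signal transducer gene Smad3 (0.65) rose, and Smad7 (-0.94), Smurf2 (-0.84) and Smad4 (-0.38) fell. In all, 4 of 12 genes rose and 5 fell (against 21.2% and 19.9% of all genes).

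Of 20 listed mitotic genes 11 were tested, and these 11 rose, with a median of 1.98, where 21.2% of all genes rose. Another 8 lay under the filter on low values and 1 was not analysed here, and 2 of the 11 exceeded 5 in Treg arrays alone, so that they could enter only by being higher there. Mki67, the proliferation antigen Ki-67, was 8.60, 8.98, 9.13 and 8.45 in KI Tregs 1 to 4 and 7.31, 6.53, 6.16 and 6.10 in KI Tconv 1 to 4 (2.27, SE 0.281, adjusted p = 3.12e-06). Ccnb2, a cyclin of mitosis, was 7.64, 7.91, 7.76 and 7.42 in KI Tregs 1 to 4 and 6.03, 5.39, 4.80 and 5.15 in KI Tconv 1 to 4 (2.34, SE 0.346, adjusted p = 2.57e-05). Ube2c (2.82), Birc5 (2.23), Nusap1 (2.17), Ccna2 (1.98) and Cdk1 (1.78) rose too. Of 16 genes of DNA replication 10 rose and 0 fell (against 21.2% and 19.9% of all genes), with a smaller median of 0.50. Of the 16, 2 exceeded 5 in Treg arrays alone and could enter only by being higher there. Rrm2 (1.89) and Cdc6 (1.54) rose by most, while the clamp gene Pcna (0.03) and Mcm4 (0.00) did not pass. The D-type cyclin gene Ccnd3 fell (-0.43), and the kinase inhibitor gene Cdkn2c rose (1.56).

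Survival and death genes rose on both sides. Of 10 BCL2 family genes 7 rose and 1 fell (against 21.2% and 19.9% of all genes), with a median of 0.54. Pmaip1, the BH3-only killer Noxa, was 8.50, 8.54, 8.33 and 8.39 in KI Tregs 1 to 4 and 5.21, 5.36, 5.51 and 5.65 in KI Tconv 1 to 4 (8.02-fold, SE 0.27 on the log2 scale, adjusted p = 4.86e-08). The killer gene Bid (1.62) and the protective genes Bcl2l1 (1.51) and Bcl2a1a (1.28) rose, although probes for Bcl2a1a may not tell it from its close copies. Bcl2l11, which encodes the killer Bim, did not pass (0.20, adjusted p = 0.118). Of 15 death receptor and caspase genes 10 rose and 1 fell (against 21.2% and 19.9% of all genes), with the inflammatory caspase genes Casp4 (2.02) and Casp1 (1.40) in front.

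Of 16 glycolysis and HIF target genes 9 rose and 3 fell (against 21.2% and 19.9% of all genes), with a median of 0.27. Egln3, a prolyl hydroxylase induced by HIF, was 6.90, 7.26, 6.65 and 7.02 in KI Tregs 1 to 4 and 4.92, 4.30, 4.51 and 4.72 in KI Tconv 1 to 4 (2.34, SE 0.184, adjusted p = 8.22e-09), and the glucose transporter gene Slc2a3 (1.75) and the hexokinase gene Hk2 (1.51) rose, while Pdk1 fell (-1.18) and Ldha did not pass (0.06). Of 22 oxidative phosphorylation genes 3 rose and 0 fell (median 0.05), of 22 ribosomal protein genes 0 rose and 3 fell (median -0.06), of 15 sterol and fatty acid genes 3 rose and 2 fell (median 0.07) and of 15 interferon response genes 3 rose and 4 fell (median 0.11). All 4 medians lay between -0.06 and 0.11. The shares over all genes, 21.2% higher and 19.9% lower, are the reference for these 4 lists too.

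Chromatin enzymes passed about as often as all genes. Of 27 histone deacetylase, acetyltransferase, polycomb and DNA methylation genes 8 rose and 4 fell, so that 12 of 27 passed where 41.1% of all genes did, and their median was -0.04. Hdac9, a class IIa deacetylase, was 5.16, 5.43, 5.02 and 5.30 in KI Tregs 1 to 4 and 3.16, 3.14, 3.09 and 3.34 in KI Tconv 1 to 4 (2.05, SE 0.179, adjusted p = 3.35e-08). Uhrf1 (1.24), a maintenance methylation factor of dividing cells, Ezh2 (0.59), the polycomb methyltransferase, Hdac6 (0.71) and Hdac1 (0.32) rose. Hdac7 rose by 0.43 (adjusted p = 0.0186) and lost its call when KI Treg 2 or 3 or KI Tconv 4 was left out, with differences from 0.35 to 0.58. It also did not pass without KI Treg 2 and KI Tconv 1 (0.31). The acetyltransferase gene Crebbp (-0.15) did not pass. Of 13 Runx, NFAT and forkhead partner genes 3 rose and 5 fell (against 21.2% and 19.9% of all genes), with a median of -0.05: Nfatc3 (-0.41), Cbfb (-0.26) and Runx3 (-0.78) fell, Nfat5 rose (0.55), and Runx1 (-0.33, adjusted p = 0.271) and Nfatc1 (-0.05) did not pass. Nfatc1 rose by 0.18 where all its probe sets were averaged, and Nfatc3 did not pass with the probe set of largest variance (-0.21). Within the Ikaros family Ikzf2, Ikzf3 and Ikzf4 rose and Ikzf1 fell (-0.73).

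**Figure D4:**
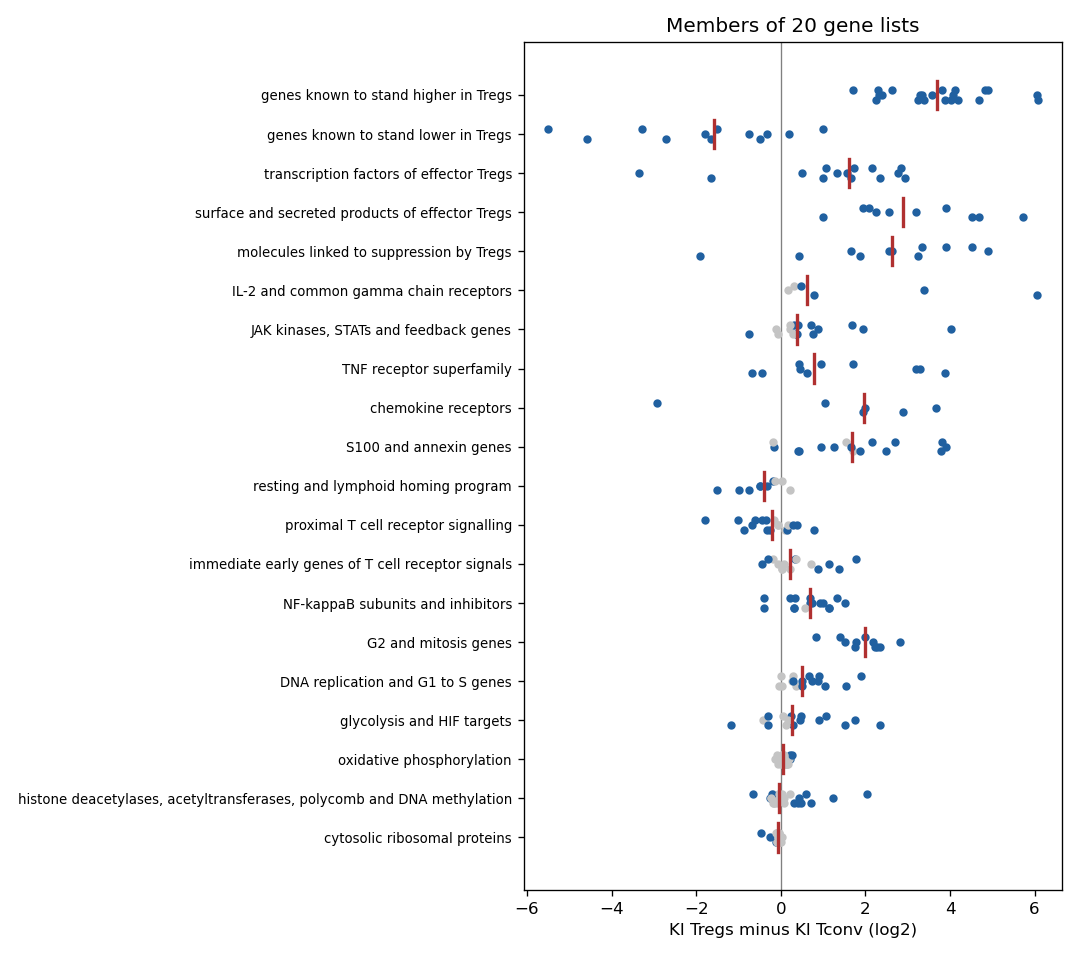
Differences between KI Tregs and KI Tconv (log2, horizontal axis) of the tested members of 20 gene lists. Blue points passed at an adjusted p under 0.05, grey points did not, and the red bar of each row is the median of the list. Medians run from -1.57 for genes known to stand lower in Tregs to 3.69 for those known to stand higher, and lie near 0 for oxidative phosphorylation and ribosomal protein genes.

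The size of some differences depended on the choice of probe set or on the lowest values. Of the named genes that passed, 47 differed by over 1.5 times under at least 1 setting other than leaving out 1 array. With all probe sets of a gene averaged, the log2 differences so moved were Ahr (1.81), Bid (1.03), Dusp10 (-0.82), Epas1 (-1.84), Ikzf4 (1.89), Il1rl2 (-1.72), Irf4 (1.28), Itgav (0.59), Itgb1 (1.18), Itgb3 (-1.43), Nacc2 (-1.93), Nfat5 (0.31), Nt5e (2.03), Plagl1 (2.53), Prf1 (-1.20), Rora (1.10), Runx3 (-0.45), Slc2a3 (0.99), Smad3 (0.26), Socs2 (2.35), Tgfbr1 (0.63), Tgfbr2 (-0.78), Tgfbr3 (-1.65), Tiam1 (1.33), Tnfrsf1b (1.90) and Vipr1 (-2.38). With values under 5 set to 5, they were Anxa4 (1.55), Atp6v0d2 (1.02), Atp8b4 (-3.06), Cd8a (1.10), Cdc6 (0.56), Entpd1 (1.02), Epas1 (-1.78), Gbp2b (2.31), Ggt5 (-2.41), Hdac9 (0.23), Hk2 (0.65), Il1r2 (1.40), Il1rl2 (-1.89), Il21 (-0.92), Nr4a2 (0.65) and Sdc4 (2.62). The probe set of largest variance gave Cd4 (-0.88), Cd44 (1.55) and Ikbkb (-0.75). On the arrays numbered 13 to 23 alone S1pr1 gave -1.48. These values kept their direction and passed, and so did Nacc2 with values under 5 set to 5.

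The distance between Tregs and Tconv was tested for a difference between genotypes. The interaction, the KI difference less the WT difference, passed for 0.786% of the 8139 genes, 54 positive (0.663%) and 10 negative (0.123%). Of these 64 genes, 56 had the same direction in both genotypes and a larger difference in KI, 3 the same direction and a smaller one, and 5 opposite signs. The count was 37 without KI Treg 1, 42 without WT Treg 1 and 104 without KI Tconv 4, and 35 of the 64 genes passed whichever of the 16 arrays was left out. In the 54 positive genes the KI minus WT median was 0.73 in Tregs and -0.32 in Tconv. Genes chosen by a positive interaction are bound to stand higher in Tregs than in Tconv by this measure, so the medians are no independent evidence.

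Among positive interactions the largest was that of Ccnb2, at 2.25 (SE 0.489, interaction adjusted p = 0.036), with a WT difference of 0.09 and a KI difference of 2.34; it kept its call in 5 of the 16 fits that left out 1 array. Atp6v0d2, a subunit of the vacuolar proton pump, was 6.04, 6.19, 5.95 and 5.89 in KI Tregs 1 to 4 and 3.46, 3.26, 3.53 and 3.55 in KI Tconv 1 to 4, and its WT Treg arrays ran from 3.59 to 4.05 (interaction 2.16, SE 0.202, adjusted p = 1.67e-05). All groups but KI Tregs lay near background, and with values under 5 set to 5 the KI difference was 1.02. For Klrg1 the interaction was 1.97 (SE 0.328, adjusted p = 0.00505): KI and WT Tregs averaged 9.08 ± 0.08 and 8.70 ± 0.52, and KI and WT Tconv 3.35 ± 0.34 and 4.94 ± 0.44 (SD, n = 4), so a larger part of it lay in Tconv, near background. S100a6 (2.03) and S100a4 (1.81) likewise averaged lower in KI than in WT Tconv, at 7.22 against 8.33 and 7.59 against 8.87. Rapgef5 (1.86), an activator of Rap GTPases, was 7.91, 7.44, 7.86 and 7.94 in KI Tregs 1 to 4 and 4.85, 4.07, 3.76 and 4.53 in KI Tconv 1 to 4, against WT means of 6.27 and 4.65.

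Chdh and Emp1 turned direction between genotypes. Chdh, a mitochondrial choline dehydrogenase, was 5.95, 6.04, 6.21 and 5.89 in KI Tregs 1 to 4 and 4.89, 4.59, 4.48 and 4.95 in KI Tconv 1 to 4, higher in KI Tregs by 1.30 (adjusted p = 2.57e-05), while in WT the difference was -0.59 (adjusted p = 0.0234; interaction 1.89, adjusted p = 0.00245). Emp1, a membrane protein of epithelial and activated cells, was 6.94, 6.73, 6.64 and 6.85 in KI Tregs 1 to 4 and 6.25, 5.40, 5.07 and 6.52 in KI Tconv 1 to 4, higher by 0.98 in KI and -0.82 in WT (adjusted p = 0.00253 and 0.0105; interaction 1.80, adjusted p = 0.0106). Its KI Tconv arrays fell in pairs, with KI Tconv 1 and 4 high, the arrays whose neutrophil sums were also high, and the part of other cells was not tested.

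Members of the lists above were among the 64. Itgae (1.49), Gzmb (1.29), Prdm1 (1.21), Nfil3 (1.10), Icos (0.95), Tnfrsf1b (0.83), Lgals1 (1.07), Ccr6 (1.05), Ccr2 (1.74), Egln3 (1.79), Tiam1 (1.03) and Ikzf2 (0.75) passed with the 16 arrays and with each left out in turn. Ikzf2 averaged 12.40 ± 0.06 in KI and 12.47 ± 0.09 in WT Tregs and 8.20 ± 0.16 and 9.02 ± 0.07 in Tconv (SD, n = 4). Foxp3 (0.84, interaction adjusted p = 0.106), Il2ra (0.57, 0.278), Ctla4 (0.83, 0.129) and Dusp4 (0.67, 0.356) did not pass. Of the mitotic genes 1 passed, Ccnb2, although the list median was 1.98 in KI and 0.66 in WT and 11 genes passed between the cell types in KI against 1 in WT.

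Negative interactions were few. Pon3, a paraoxonase, averaged 4.88 ± 0.27 in KI Tregs and 3.09 ± 0.08 in KI Tconv (SD, n = 4), higher in KI Tregs by 1.79 and in WT Tregs by 2.83 (interaction -1.04, adjusted p = 0.02). With values under 5 set to 5 its KI difference was 0.06 and did not pass. The other 7 of the 8 largest negative interactions were those below. Sema4a fell further in KI than in WT (-0.94, adjusted p = 0.023), as did Tgfbr3 (-0.61, 0.0185), Rasgrp2 (-0.57, 0.0342), an activator of Rap GTPases, and the aldo-keto reductase gene Akr1c13 (-0.93, 0.0138). St8sia6 (-0.50), Crim1 (-0.72) and Ms4a4c (-0.72) completed them. The remaining 2 of the 10, Tgfbr2 (-0.44, 0.0302) and Emb (-0.48, 0.0366), the latter named after its values were seen, were smaller. Some of these calls rest on few arrays: Crim1 kept its call in 2 of the 16 fits with an array left out, Rasgrp2 in 5, Tgfbr2 in 6, Emb in 3, St8sia6 in 7, Ms4a4c in 9, Sema4a in 10, Pon3 in 12, Tgfbr3 in 14 and Akr1c13 in 16.

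**Figure D5:**
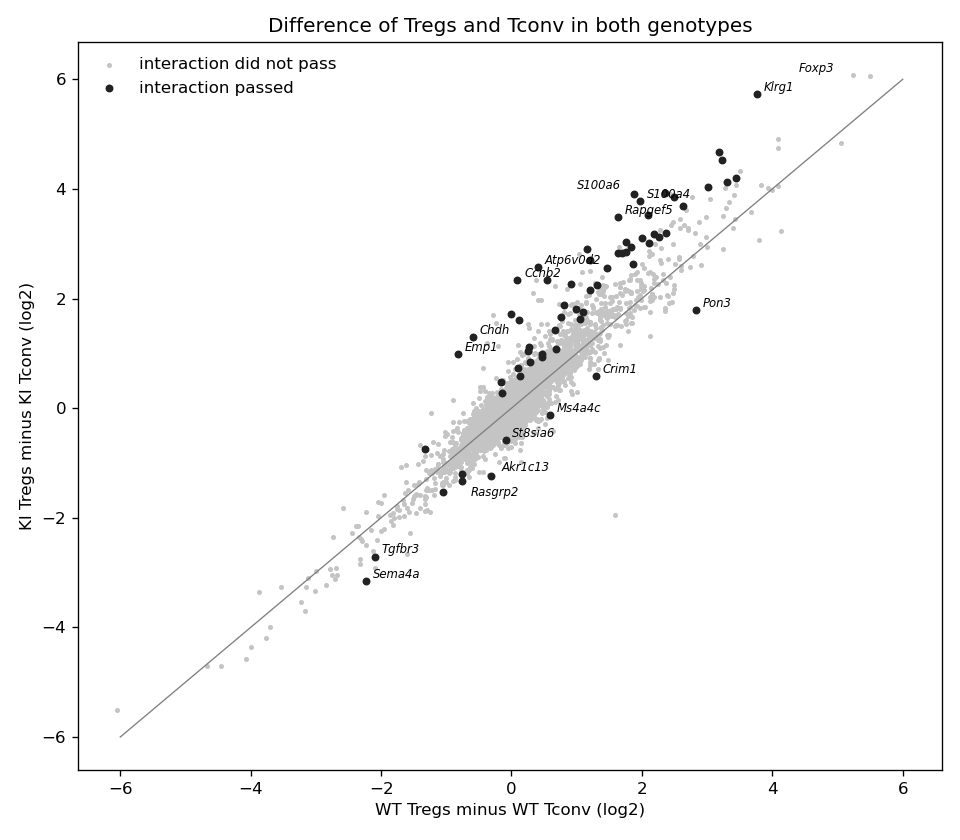
Difference between Tregs and Tconv (log2) in KI mice (vertical axis) against that in WT mice (horizontal axis) for the 8139 tested genes, with the diagonal where they are equal. The 64 genes that passed the interaction are black, and the 8 with the largest positive and negative interactions are named. Klrg1 lies at 5.73 in KI and 3.76 in WT, Atp6v0d2 at 2.57 and 0.41, and Foxp3, which did not pass, at 6.07 and 5.23.

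The KI arrays fall into 2 ranges of label numbers, 13 to 23 for replicates 1 to 3 and 26 and 27 for replicate 4 of each cell type, and what the numbers stand for is not stated. WT replicates 1 to 3 are numbered 4 to 9, and WT replicate 4 of each cell type 24 and 25. Replicates 1 to 3 of the 2 genotypes thus share no range. Where levels of KI and WT cells are compared, genotype and range can hardly be told apart. With a term for the range 3616 genes passed, and 3327 of the 3343 genes kept their calls. All 64 interaction genes kept theirs, with a term that shifts both cell types alike. Of the 3343 genes, 3232 had the same sign in the 6 arrays of the first range as in the pair of the second. S1pr1 was among those that did not, lower in KI Tregs in the first range and higher in the second. Foxp3 differed by 6.22 in the first range and 5.62 in the second, Klrg1 by 5.92 and 5.16, Mki67 by 2.24 and 2.36, S100a6 by 4.17 and 3.12, and Pdlim4 by -5.30 and -6.09.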

How the data were processed

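Gene expression was measured on 1-colour arrays in 16 samples, 8 of them from KI mice. The deposited values are log2 signals that the authors made by RMA in Partek 6.5, per the submitters' processing notes, with no counts, so depth does not apply. No other normalisation was done for the main results. The table has 45141 probe sets, of which 28898 were matched to 1 gene, 551 to several and 15588 to none listed. Where a gene had several probe sets, that of highest mean over the arrays was used, and a gene was tested if it exceeded 5 on at least 4 arrays, which left 8139 genes. limma 3.58.1 in R 4.3.3 was fitted to all 16 arrays with 1 mean per group and an intensity trend in the variance, and p-values were adjusted by Benjamini-Hochberg at 0.05. The scripts were tested on simulated data. Named genes were the 15 largest rises and falls without overlap, the 8 largest interactions in each direction, up to 10 tested members of each list by size and up to 6 that did not pass by level, and the marker genes. The samples compared and the gene lists were chosen with earlier results of these data known. Alternatives were another choice of probe set, other filters, scalings and variance models, a term for label number range, and leaving out arrays. Promoter sequences are from RefSeq, GRCm38.p6.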

Additional observations from a re-analysis of the deposited data

Results flagged for a closer look

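In 4 of the 124 groups of 4 values examined, 1 array lay apart from the other 3 by Dixon's criterion, which chance meets in about 1 in 20 groups. They were Ctla4 in KI Tconv 4 (5.67), Klrg1 in KI Tconv 4 (3.85), Rapgef5 in KI Treg 2 (7.44) and Tgfbr3 in KI Tconv 4 (10.92), each a log2 value. KI Tconv 4 gave 3 of them, and the differences between the cell types kept their direction and their calls for these 4 genes without it.

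The difference between Tregs and Tconv itself differed between KI and WT mice for 37 of the named genes by limma's interaction test. It was larger in the positive direction in KI, as KI difference minus WT difference on the log2 scale, for Ccnb2 (2.25), Atp6v0d2 (2.16), S100a6 (2.03), Klrg1 (1.97), Chdh (1.89), Rapgef5 (1.86), S100a4 (1.81), Emp1 (1.80), Egln3 (1.79), Ccr2 (1.74), Nrn1 (1.58), Anxa2 (1.49), Itgae (1.49), Gzmb (1.29), Prdm1 (1.21), Nfil3 (1.10), Lgals1 (1.07), Ccr6 (1.05), Tiam1 (1.03), S100a11 (0.96), Icos (0.95), Tnfrsf1b (0.83), Nrp1 (0.82), Itgb1 (0.80), Ccr9 (0.79), Ikzf2 (0.75) and Hif1a (0.39). It was negative for Pon3 (-1.04), Sema4a (-0.94), Akr1c13 (-0.93), Crim1 (-0.72), Ms4a4c (-0.72), Tgfbr3 (-0.61), Rasgrp2 (-0.57), St8sia6 (-0.50), Emb (-0.48) and Tgfbr2 (-0.44). With each of the 16 arrays left out in turn, Ccnb2 kept its call in 5, S100a11 in 5, Nrp1 in 5, Itgb1 in 3, Ccr9 in 6 and Hif1a in 5. All 3 S100 genes and Anxa2 are also expressed by myeloid cells, whose marker sums varied between KI arrays, and the part of those cells was not tested.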

How the results depend on the processing

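The count of genes that differed between KI Tregs and KI Tconv was 3343, and 2773 to 3697 under the other settings that tested 1 value per gene. With every probe set tested, an alternative chosen after seeing the data, it was 6806 in KI and 5373 in WT mice, where more features were tested. Leaving out 1 array gave 2890 to 3346 genes in KI and 2443 to 2977 in WT. The interaction count of 64 was 52 to 87 under the settings with 1 value per gene and 37 to 104 with 1 array left out: 37 without KI Treg 1, 42 without WT Treg 1 and 104 without KI Tconv 4. The cause was not tested. 20 of the 47 list medians moved by more than the spread of the KI Treg arrays under at least 1 setting, and those of at least 0.1 in size that moved by over 1.5 times were the CD28 family (0.50 to 0.21 with quantile normalisation repeated and 0.24 with values under 5 set to 5), helper cytokines (0.58 to 0.90 with probe sets averaged), semaphorins (0.35 to 0.12 with probe sets averaged, 0.14 with quantile normalisation and 0.17 with values under 5 set to 5), plasma cell markers (1.51 to 0.96 with probe sets averaged), proximal T cell receptor signalling (-0.21 to -0.36 with the probe set of largest variance) and cyclic AMP control (-0.13 to -0.30 with that probe set or the filter at 6). Of the 203 named genes that passed, 8 lost their call under at least 1 setting: Adcy3, Bcl2, Hdac7, Ifng, Nfatc3, Pon3, Ptpn22 and Tgfb1. Nfatc1, which did not pass, was higher in KI Tregs by 0.18 and passed when its probe sets were averaged. Of the other named genes that did not pass, 7 passed under at least 1 setting: Il4ra in 6 (0.32 to 0.39), Bcl2l11 in 4 (0.27 to 0.40), Runx1 in 3 (-0.59 to -0.34), Dusp1 in 2 (0.32 and 0.50), Cd8b1 in 2 (-0.37 and -0.33), Itch in 1 (-0.53) and Hspa1b in 1 (-2.95 without KI Tconv 1). No paired analysis was possible because the labels give the arrays of different groups no shared replicate numbers. Signals under about 5 lie near background, so folds that involve them are understated, and 4 arrays per group limit the precision.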

Other observations

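Nrn1, a membrane-anchored neuritin first described in neurons, had the smallest interaction p-value of the genes tested and was named after its values were seen. It was 10.19, 10.07, 10.04 and 10.01 in KI Tregs 1 to 4 and 6.26, 5.98, 6.14 and 6.25 in KI Tconv 1 to 4, and the difference was 3.92 in KI and 2.35 in WT mice (interaction 1.58, SE 0.115, limma adjusted p = 6.57e-07). Neither group's arrays spread by more than 0.3.

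Counts of 3 other families are set against 21.2% of all genes that rose and 19.9% that fell. In the GIMAP family of lymphocyte GTPases, with 8 tested members, 2 rose and 2 fell: Gimap7 rose by 1.27 and Gimap3 by 0.48, and Gimap6 fell (-0.32). Among protein tyrosine phosphatases, with 11 tested members, 2 rose and 4 fell, and Ptpn13, with 2.52, or 1.33 with its probe sets averaged, rose by most, while Ptpn6 (-0.42), Ptpra (-0.45) and Ptpn12 (-0.29) fell. Among ubiquitin ligases and their regulators, with 11 tested members, 4 rose and 2 fell: Nedd4 rose by 1.54 and its relative Nedd4l fell (-0.88), Cblb (0.37) and Cbl (0.40) rose, and Itch (-0.09) did not pass, except with its probe set of largest variance (-0.53).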
